A study of Mus musculus with 6 samples.

Results

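The 10 naive pluripotency transcription factors *Klf2*, *Klf4*, *Klf5*, *Esrrb*, *Tfcp2l1*, *Tbx3*, *Zfp42*, *Prdm14*, *Nr0b1* and *Nr5a2* were followed through 6 mRNA-seq libraries of mouse embryonic stem cells (ESCs). They were taken by gene symbol from the 19489 genes of the expression table, and all 10 were found. On GRCm38.p6 they lie on chromosomes 1 (*Tfcp2l1*, *Prdm14* and *Nr5a2*), 4 (*Klf4*), 5 (*Tbx3*), 8 (*Klf2* and *Zfp42*), 12 (*Esrrb*), 14 (*Klf5*) and X (*Nr0b1*). The libraries came from ESCs overexpressing *Dppa3* (*Dppa3* OE) and from control (Con) ESCs, labelled wild type, that carried an empty vector. In the stable lines the *Dppa3* coding sequence was driven by the CAG promoter, and picked colonies were grown up after puromycin selection; whether stable or transient cells, and which ESC line, were sequenced is not stated. For its ESCs the paper describes a medium with serum and LIF, and names no kinase inhibitors.

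There were 2 OE and 2 Con libraries numbered 1 and 2, and 1 further library of each genotype numbered 3 and labelled D7. No source explains the label D7 or says whether its cells were kept in the same medium, so this pair was kept apart. Libraries that share a number are called a pair here, and no source says whether the numbers mark separate cultures, so p-values measure the spread between these libraries, which may be technical. The strain label differs for each library and runs in sample order, so strain cannot be told apart from library. Library totals lay between 17408954 and 18176939 estimated counts, and the members had 227 to 14534 counts per library. *Dppa3* itself stood at 131 FPKM in OE-D7 and at 279 FPKM in both OE-2 and OE-1. In the controls it stood at 26.2 FPKM in Con-D7, 3.89 FPKM in Con-2 and 6.09 FPKM in Con-1. FPKM is a level scaled for transcript length and library depth, so levels of different genes can be compared on it. The OE over Con log2 fold change of *Dppa3* in pairs 1 and 2 was 5.75 ± 0.32 (SE, adjusted p = 0.43 by edgeR's quasi-likelihood test). With the replicate number as a block it was 5.76 ± 0.13 (adjusted p = 6.35e-15).

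Naive pluripotency is the state of the preimplantation epiblast, which mouse ESCs keep in culture under LIF. LIF acts through its receptor and Stat3, and Wnt signalling relieves repression by Tcf7l1, so that both feed a network of transcription factors that sustain each other. *Klf4* and *Tfcp2l1* are known targets of Stat3, *Tbx3* is linked to PI3K signalling, *Esrrb* is the best known target freed from Tcf7l1, and the protein of *Klf2* is known to be degraded after Erk phosphorylates it. *Klf5* is a further Krüppel-like factor that overlaps in function with both others. *Nr5a2* and *Nr0b1* are nuclear receptors, *Nr0b1* being an unusual one that represses its partners. *Prdm14* represses Fgf receptor signalling and DNA methyltransferase genes, and *Zfp42* (Rex1) is a zinc finger protein used as a marker of the naive state.

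The promoters of these genes are shown for members that stand for the patterns described further on, because the factors bind each other's regulatory regions. RefSeq promoter windows on GRCm38.p6 matched 7 of the 10 members with 9 windows, and the 250 bases before each start were searched on both strands. Klf4 and Tfcp2l1 had like levels in pairs 1 and 2 and a lower one in D7, and Klf2 and Zfp42 differed between pairs 1 and 2 as well. Capitals mark matches to a Klf box (CCNCNCCC, N being any base) and, in Zfp42, also to the octamer bound by Oct4 (ATGCNAAT); overlapping matches run together.
Klf4, chr4:55532476-55532725, minus strand: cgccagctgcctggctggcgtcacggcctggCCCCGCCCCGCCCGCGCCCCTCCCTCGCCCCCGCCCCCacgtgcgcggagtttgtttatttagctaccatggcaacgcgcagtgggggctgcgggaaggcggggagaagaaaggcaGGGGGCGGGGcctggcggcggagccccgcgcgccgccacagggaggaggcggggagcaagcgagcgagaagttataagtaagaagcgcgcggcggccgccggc
Tfcp2l1, chr1:118627695-118627944, plus strand: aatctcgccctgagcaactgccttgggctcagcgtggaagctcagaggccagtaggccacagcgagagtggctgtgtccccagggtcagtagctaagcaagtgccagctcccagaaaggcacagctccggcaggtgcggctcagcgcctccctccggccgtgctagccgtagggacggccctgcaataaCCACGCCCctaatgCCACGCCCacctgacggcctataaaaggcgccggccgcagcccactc
Klf2, chr8:72318812-72319061, plus strand: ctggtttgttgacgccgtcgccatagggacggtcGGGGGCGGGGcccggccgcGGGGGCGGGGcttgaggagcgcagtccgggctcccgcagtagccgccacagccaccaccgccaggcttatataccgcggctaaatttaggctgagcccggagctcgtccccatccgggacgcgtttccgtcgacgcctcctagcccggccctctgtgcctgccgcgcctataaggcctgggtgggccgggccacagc
Zfp42, chr8:43307010-43307259, minus strand: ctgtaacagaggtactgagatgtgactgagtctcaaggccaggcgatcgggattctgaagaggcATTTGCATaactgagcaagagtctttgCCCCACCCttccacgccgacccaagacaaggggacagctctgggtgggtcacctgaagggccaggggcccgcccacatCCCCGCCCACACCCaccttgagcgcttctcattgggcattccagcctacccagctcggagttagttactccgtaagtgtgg

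A Klf box stood in 7 of the 9 member windows and in 6 of the 7 members, against 45.9% of all 32851 windows of this length. *Klf4* had 9 overlapping or separate matches, *Klf2* 4, *Zfp42* 3 and *Tfcp2l1* 2, while the window of *Nr0b1* had none. The windows of *Klf2* and *Klf4* were 71.2% and 74.0% G and C, a content that the share over all windows was not matched for. The octamer stood in 1 of the 9 member windows, that of *Zfp42*, against 2.86% of all windows. A Stat motif (TTCNNNGAA) was found in 1 of the 9 member windows, belonging to *Esrrb*, against 7.02% of all windows. The windows of *Klf4* and *Tfcp2l1* held no Stat motif. A Tcf/Lef motif (CTTTGNT) was found in 1 of the 9 member windows, belonging to *Nr5a2*, against 15.98% of all windows. The Esrrb motif (AAGGTCA) was in 0 of the 9 windows and in 4.08% of all windows. These letters describe the windows, and sequence elsewhere was not searched.

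*Zfp42* was the most abundant member and *Prdm14* the least in all 6 libraries. Over the 6 libraries *Zfp42* averaged 336 ± 88.7 FPKM (SD, n = 6) and *Prdm14* 8.28 ± 3.56 FPKM. Between them stood *Klf2* with 156 ± 70.9, *Esrrb* with 145 ± 53.9 and *Klf5* with 110 ± 42.2 FPKM. *Esrrb* lay above *Klf5* in every library, and *Klf2* changed places with both. *Klf4* averaged 80.3 ± 28.7 and *Tbx3* 52.3 ± 11.03 FPKM. *Tfcp2l1* with 29.4 ± 9.08, *Nr0b1* with 24.5 ± 12.6 and *Nr5a2* with 20.3 ± 9.94 FPKM followed. *Tfcp2l1* lay above *Nr5a2* in every library, while *Nr0b1* changed places with both. These SDs include the differences between pairs.

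**Figure D1:**
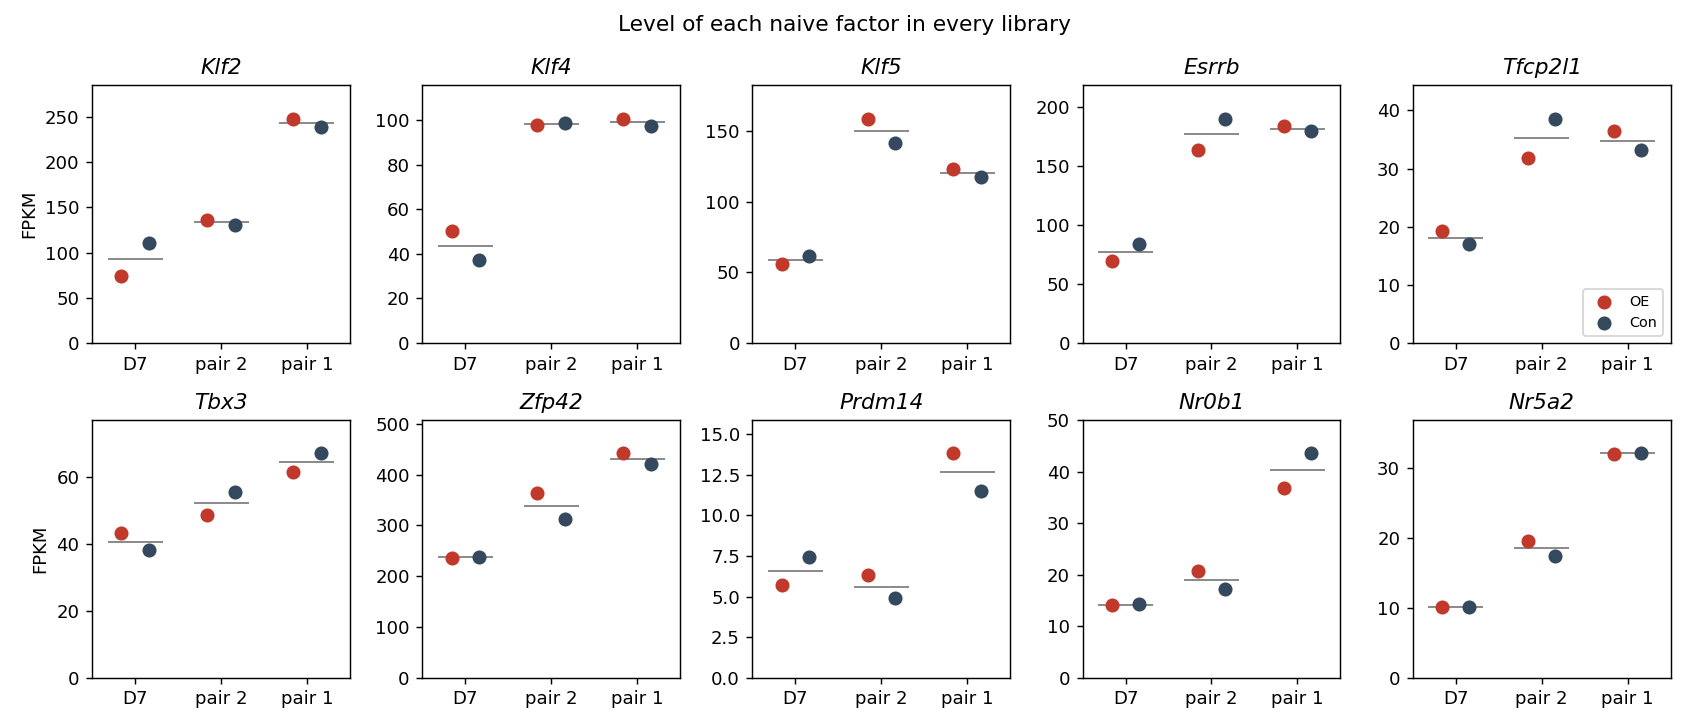
FPKM (linear axis from 0) of each of the 10 naive factors in the D7 pair, pair 2 and pair 1, with red points for OE libraries, dark points for Con libraries and grey lines for the mean of each pair. The genotypes lie close together within a pair, *Klf4*, *Esrrb*, *Tfcp2l1* and *Klf5* are low in D7, and *Klf2*, *Nr0b1*, *Nr5a2* and *Prdm14* are lower in pair 2 than in pair 1.

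The first question was whether *Dppa3* OE moved the naive factors. It did not move any of them past the test. Over libraries 1 and 2, 0 of the 10 members passed at an adjusted p of 0.05 in either direction by edgeR's quasi-likelihood test, and 0 had an unadjusted p under 0.05; DESeq2 and limma also called 0. Of all 13494 genes tested, 0% were called higher and 0% lower. Without adjustment, 58 genes passed as higher and 4 as lower at p under 0.05, and DESeq2 called 2 higher. With the replicate number as a block, 0.763% of genes were called higher and 0.126% lower, and the members called were again 0, although *Tbx3* reached an unadjusted p of 0.0133 (log2 fold change −0.20 ± 0.07, adjusted p = 0.388).

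The Krüppel-like factors differed little by genotype. *Klf4* had 97.7 FPKM in OE-2 and 101 in OE-1, against 98.7 in Con-2 and 97.4 in Con-1. *Klf2* had 136 and 248 FPKM in OE-2 and OE-1, against 131 and 239 in Con-2 and Con-1. *Klf5* had 159 and 123 FPKM in OE-2 and OE-1, against 142 and 118 in Con-2 and Con-1. The gap between pairs in *Klf2* was far wider than the gap between genotypes within a pair.

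*Esrrb* and *Tfcp2l1* changed order between the pairs. *Esrrb* had 164 and 184 FPKM in OE-2 and OE-1, against 191 and 180 in Con-2 and Con-1. *Tfcp2l1* had 31.9 and 36.4 FPKM in OE-2 and OE-1, against 38.6 and 33.1 in Con-2 and Con-1. Both were thus lower in OE than in Con in pair 2 and higher in pair 1, and the groups overlapped. *Tbx3*, lower in OE in both pairs, had 48.6 and 61.5 FPKM in OE-2 and OE-1, against 55.5 and 67.0 in Con-2 and Con-1.

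*Prdm14* was slightly higher in OE than in Con in both pairs, with 6.32 FPKM in OE-2 and 13.8 in OE-1, against 4.91 in Con-2 and 11.5 in Con-1. *Zfp42* followed it, with 365 and 442 FPKM in OE-2 and OE-1, against 313 and 421 in Con-2 and Con-1. *Nr0b1* had 20.7 and 36.9 FPKM in OE-2 and OE-1, against 17.3 and 43.6 in Con-2 and Con-1. *Nr5a2* had 19.6 and 32.1 FPKM in OE-2 and OE-1, against 17.5 and 32.1 in Con-2 and Con-1. For these 4 genes, too, the OE and Con ranges overlapped.

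In 0 of the 10 members did both OE libraries lie above both Con libraries, and in 0 did both lie below. Among all genes tested, 11% had both OE libraries above and 4.61% had both below. The median log2 fold change of the members was −0.01, as was the median of all genes tested, with 5 members above 0 and 5 below. How large a change the data leave room for depends on the fit. Without the block, 95% intervals reached −1.71 for *Nr0b1* at the lowest and 1.93 for *Prdm14* at the highest. With the block, no bound of any member went below −0.35, which was that of *Tbx3*, or above 0.54, that of *Prdm14*. For *Klf2* and *Klf4* the blocked intervals were −0.13 to 0.16 and −0.18 to 0.12. The narrower intervals assume that a shared number marks a shared handling of the cells.

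**Figure D2:**
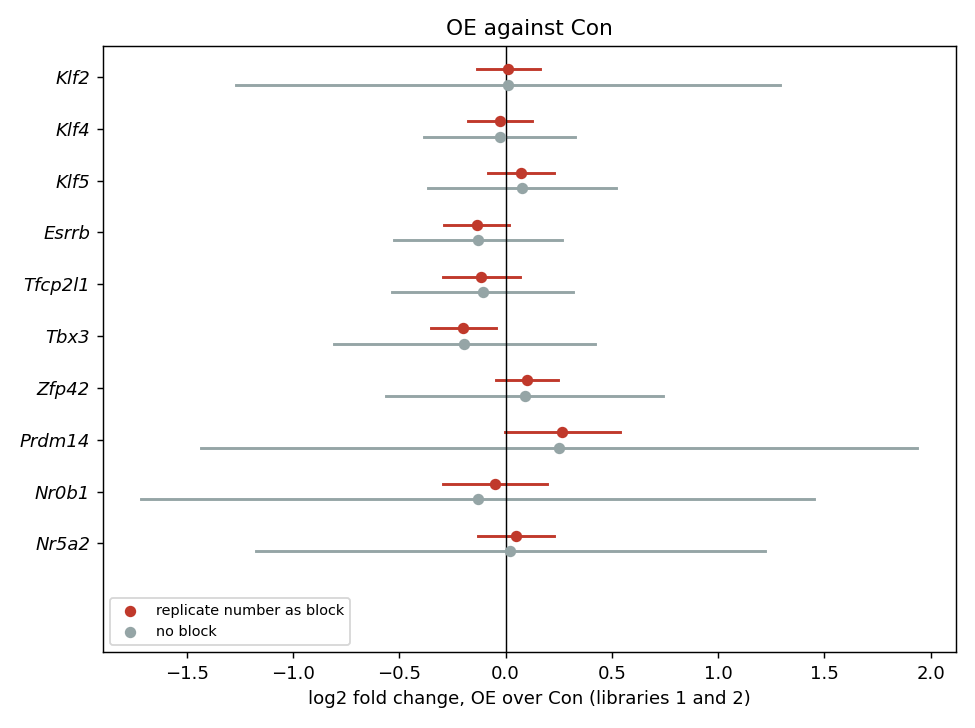
Log2 fold change of OE over Con in libraries 1 and 2 for each member (points) with its 95% interval (lines), with the replicate number as a block in red and without it in grey. Points lie between −0.20 and 0.27 in both fits, and the block narrows the intervals.

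Within the D7 pair there was 1 library per genotype and so no test. OE-D7 lay above Con-D7 in 4 of the 10 members (*Klf4*, *Tfcp2l1*, *Tbx3* and *Nr5a2*), OE-2 above Con-2 in 6 and OE-1 above Con-1 in 7. The widest gaps in the D7 pair were those of *Klf2*, with 73.9 FPKM in OE-D7 and 111 in Con-D7, and *Klf4*, with 50.3 in OE-D7 and 37.0 in Con-D7. The OE effect in the D7 pair was set against that in pairs 1 and 2 as an interaction, and 0 members passed it, 0 of them at an unadjusted p under 0.05. Of all genes, too, 0% passed in each direction by edgeR, with 47 higher and 22 lower before adjustment at p under 0.05. With all 6 libraries in 1 fit and D7 as a covariate, OE against Con called 0 members and 0% of all 13809 genes in each direction by edgeR. At an unadjusted p under 0.05 it had 0 members, 125 genes higher and 54 lower, and DESeq2 called 6 genes higher and 1 lower, 0 of them members.

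The second question was how the D7 pair differed. Of the 10 members, 4 fell in it past the adjusted threshold and 0 rose. These were *Esrrb*, *Klf5*, *Klf4* and *Tfcp2l1*, at 42.8%, 43.4%, 44.3% and 51.7% of their mean in the other 4 libraries. Among all genes, 6.77% were called higher and 3.06% lower in D7. The median log2 fold change of the members was −1.08, beside −0.03 over all genes tested.

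*Esrrb*, an orphan nuclear receptor that binds with Oct4 and Sox2, had 69.9 FPKM in OE-D7 and 83.8 in Con-D7, against 164 in OE-2, 184 in OE-1, 191 in Con-2 and 180 in Con-1. Its log2 fold change was −1.23 ± 0.12 (SE, adjusted p = 0.00615 by edgeR's quasi-likelihood test). *Klf5* had 56.1 FPKM in OE-D7 and 61.4 in Con-D7, against 159 in OE-2, 123 in OE-1, 142 in Con-2 and 118 in Con-1. The D7 libraries of both genes lay well below all other libraries, and *Klf5* fell by 1.21 on the log2 scale (SE 0.14, adjusted p = 0.0107 by edgeR). *Klf4*, a target of Stat3, had 50.3 FPKM in OE-D7 and 37.0 in Con-D7, against 97.4 to 101 in the other 4 libraries. It fell by 1.20 (SE 0.14, adjusted p = 0.0111 by edgeR). *Tfcp2l1*, another Stat3 target, had 19.2 FPKM in OE-D7 and 16.9 in Con-D7, against 31.9 to 38.6 in the other 4, and fell by 0.96 (SE 0.14, adjusted p = 0.0163 by edgeR).

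In the other 6 members the D7 test was not passed. *Nr5a2*, with 10.2 FPKM in OE-D7 and 10.1 in Con-D7 against 17.5 to 32.1 in the other 4, had the lowest log2 fold change of all 10 members, −1.36 ± 0.36 (adjusted p = 0.0726 by edgeR). *Klf2* stood at 73.9 FPKM in OE-D7 and 111 in Con-D7, against 131 to 248 in the other 4, with −1.07 ± 0.40 (adjusted p = 0.146). *Nr0b1* had 14.1 FPKM in OE-D7 and 14.3 in Con-D7, against 17.3 to 43.6, with −1.09 ± 0.47 (adjusted p = 0.19). The other 4 libraries of these 3 genes fell into a higher and a lower pair, and that gap entered the error of the test.

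*Zfp42* had 237 FPKM in OE-D7 and 238 in Con-D7, against 313 to 442 in the other 4, with −0.72 ± 0.19 (adjusted p = 0.07 by edgeR). *Tbx3* had 43.1 FPKM in OE-D7 and 38.2 in Con-D7, against 48.6 to 67.0, with −0.53 ± 0.19 (adjusted p = 0.135 by edgeR). *Prdm14* was the exception, as its D7 libraries, 5.72 FPKM in OE-D7 and 7.41 in Con-D7, lay within the range of the other 4, 4.91 to 13.8 FPKM. Its log2 fold change was −0.50 ± 0.51 (adjusted p = 0.545 by edgeR). In the 9 other members both D7 libraries were below all other 4, as was so for 23.6% of all genes.

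The D7 pair is 1 pair, and the count of members called rests on both of its libraries. It was 0 without OE-D7, with an adjusted p of 0.199 to 0.305 for the 4 genes, 0 without Con-D7, with 0.114 to 0.209, and 0 when the counts of each pair were summed, where 7 members still had an unadjusted p under 0.05. In these 3 fits 0%, 0% and 0.0724% of all genes were called lower. Without Con-2 it was 8, with 6.65% of all genes called lower. With the replicate number as a block, where the error is that within pairs, it was 9 (all but *Prdm14*), with 23.6% of all genes called lower and 25.6% higher.

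**Figure D3:**
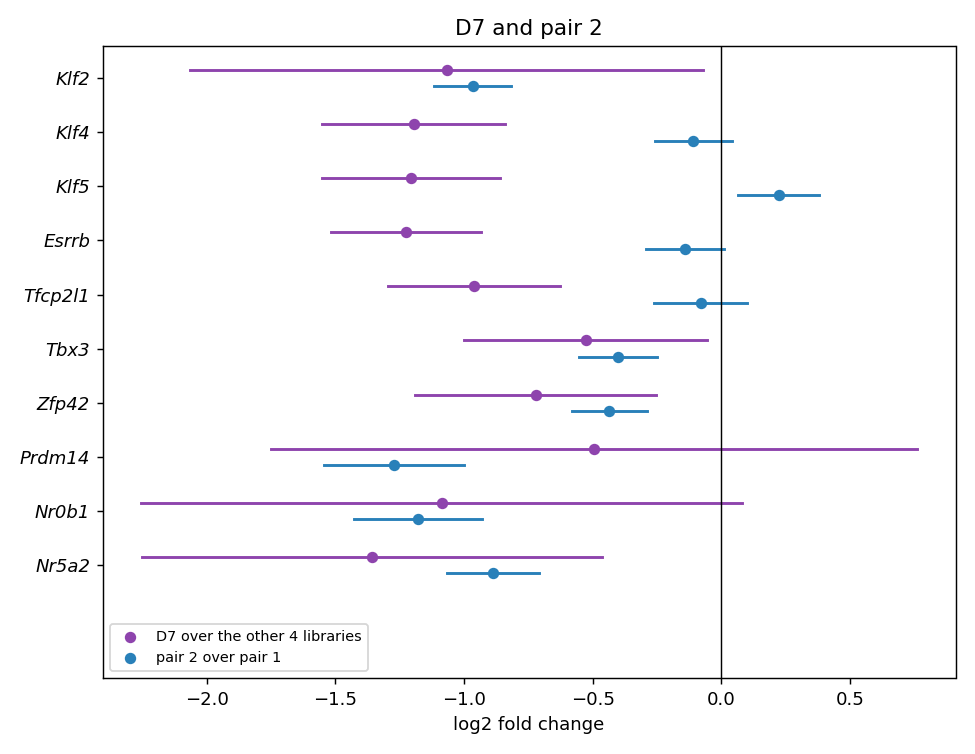
Log2 fold change of each member (points) with its 95% interval (lines), for the D7 libraries over the other 4 in purple and for pair 2 over pair 1 in blue. *Klf4*, *Esrrb* and *Tfcp2l1* lie near 0 in the blue comparison and near −1 in the purple one, while *Klf2*, *Nr0b1* and *Nr5a2* lie near −1 in both.

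Many markers of other cell types were higher in the D7 libraries, where 6.77% of all genes were called higher and 3.06% lower. Over the 9 trophectoderm markers the summed level was 694 to 1240 FPKM in the D7 pair, against 27.2 to 50.1 FPKM in the other 4 libraries, and 6 of the 8 markers tested were called higher. Most of that sum in D7 was *Krt18*, with 580 FPKM in OE-D7 and 318 in Con-D7, and *Krt8*, with 421 and 250. *Hand1* had 150 and 71.6 FPKM there, and *Krt7* 74.8 and 39.1. *Cdx2* reached at most 1.49 FPKM in D7, against at most 0.15 elsewhere. *Tfap2a* had 1.54 FPKM in OE-D7 and 1.40 in Con-D7, against 0.95 to 2.07 FPKM in the other 4. Over the 11 fibroblast or feeder markers the summed level was 358 to 604 FPKM in D7, against 159 to 185 FPKM, with 6 of 8 called higher and 0 lower. Among those called, *Acta2* had 138 FPKM in OE-D7 and 58.2 in Con-D7, *Col1a1* 129 and 38.0, and *Tagln* 99.8 and 63.5. In the other 4 libraries these genes had at most 1.81 FPKM. *Fn1*, which was not called, had 190 and 166 FPKM in D7, against 110 to 129 FPKM in the other 4. *Thy1* of the same list had 20.97 FPKM in OE-D7 and 22.95 in Con-D7, against 30.8 to 52.99 FPKM in the other 4 (−0.95 ± 0.23, adjusted p = 0.0593 by edgeR). *Lum* and *Dcn* stayed at or under 0.21 FPKM in all libraries, and *Elf5* at or under 0.66 FPKM. Primitive endoderm markers summed to 39.4 to 70.5 FPKM in D7 and 20.6 to 24.5 FPKM in the other 4, with 3 of 6 called higher and 1 lower. Most of that sum in D7 was *Col4a1*, with 51.4 FPKM in OE-D7 and 27.8 in Con-D7, and the marker called lower was *Lama1* (−1.50 ± 0.21, adjusted p = 0.0156 by edgeR). The 2-cell-like markers summed to 332 to 494 FPKM in D7 and 75.7 to 186 FPKM in the other 4, with 5 of 7 called higher. Whether such cells were present, and their part in the fall of the naive factors, was not tested. In bulk RNA, fewer cells of a type and less RNA per cell cannot be told apart.

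The 6 ESC markers summed to 3344 to 3447 FPKM in D7 and 3142 to 3965 FPKM in the other 4. Their median log2 fold change was −0.49, however, with 1 called lower and 0 higher, beside 3.06% and 6.77% of all genes. Much of the sum is *Dppa5a*, with 2268 FPKM in OE-D7 and 2083 in Con-D7, against 1238 to 1701 FPKM in the other 4 (log2 fold change 0.57 ± 0.14, adjusted p = 0.063 by edgeR). *Tdgf1*, a co-receptor of Nodal, had 232 FPKM in OE-D7 and 407 in Con-D7, against 498 to 1082 FPKM in the other 4 (−1.29 ± 0.38, adjusted p = 0.0896 by edgeR). Of the 4 core factors, *Pou5f1* (Oct4) fell by 0.88 on the log2 scale (SE 0.13, adjusted p = 0.0196 by edgeR). *Sox2* had −0.43 ± 0.11 (adjusted p = 0.073), *Nanog* −0.18 ± 0.27 (adjusted p = 0.688) and *Sall4* −0.55 ± 0.46 (adjusted p = 0.463).

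Set against the core factors, the naive factors were lower in D7. Their summed FPKM was 68.6% of the core sum in OE-D7 and 64.5% in Con-D7, against 88.6% in OE-2, 88.3% in OE-1, 85.4% in Con-2 and 88.3% in Con-1. Set against *Pou5f1* alone, the D7 values of 9 members overlapped those of the other libraries or lay above them. *Esrrb* was at 22.4% and 21.8% of the *Pou5f1* level in OE-D7 and Con-D7, against 26.3% to 30.6% in the other 4 libraries, and was the 1 member of 10 whose D7 values lay below all others on that scale, as did 1.33% of all genes. *Klf4* was at 16.1% of *Pou5f1* in OE-D7 and 9.65% in Con-D7, against 14.3% to 16.99% in the other 4. These ratios are descriptions, with no test.

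**Figure D4:**
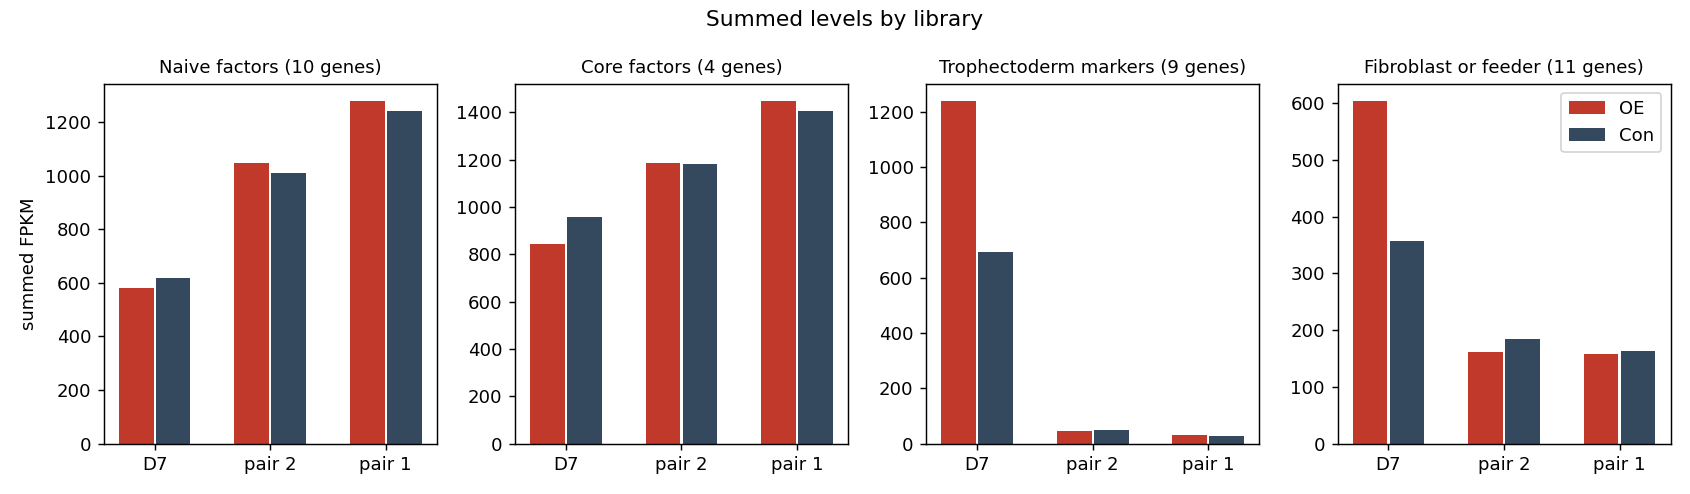
Summed FPKM (bars from 0) of the 10 naive factors, the 4 core factors, 9 trophectoderm markers and 11 fibroblast or feeder markers in the D7 pair, pair 2 and pair 1, with OE in red and Con in dark. The naive factors sum to 579 and 618 FPKM in D7 and to 1008 or more elsewhere, and the trophectoderm markers to 694 or more in D7 and to 50.1 or less elsewhere.

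Pair 2 against pair 1 divided the members in another way. With genotype as a term, 6 members fell in pair 2, 1 rose and 3 did not pass. The background is high here, since 26% of all genes were called higher and 25.4% lower in pair 2, so the share of members called is not read as a property of the naive factors. Each side held 1 OE and 1 Con library. The test sets the gap between the pairs against how far that gap differs between the genotypes. With 1 pair on each side, its p-values do not measure the spread between replicate pairs.

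The steepest differences were in *Prdm14*, *Nr0b1*, *Klf2* and *Nr5a2*. *Prdm14* averaged 5.62 ± 1.00 FPKM in pair 2 and 12.7 ± 1.65 FPKM in pair 1 (SD, n = 2 each), with a log2 fold change of −1.27 ± 0.13 (SE, adjusted p = 9.16e-07 by edgeR). *Nr0b1* averaged 19.0 ± 2.42 FPKM in pair 2 and 40.2 ± 4.70 FPKM in pair 1, with −1.18 ± 0.12 (adjusted p = 8.15e-07 by edgeR). *Klf2* averaged 133 ± 3.85 FPKM in pair 2 and 243 ± 6.66 FPKM in pair 1, with −0.97 ± 0.07 (adjusted p = 7.17e-08 by edgeR). These 3 genes were at 44.4%, 47.2% and 54.8% of their pair 1 level, with no overlap between the pairs.

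*Nr5a2* averaged 18.5 ± 1.47 FPKM in pair 2 and 32.1 ± 0.02 FPKM in pair 1, with −0.89 ± 0.08 (adjusted p = 6.22e-07 by edgeR). *Zfp42* and *Tbx3* fell less, to 78.5% and 81.0% of their pair 1 level, with −0.44 ± 0.07 and −0.40 ± 0.07 (adjusted p = 6.77e-05 and 0.000204 by edgeR). *Klf5* was the member that rose, by 0.22 ± 0.07 on the log2 scale (adjusted p = 0.0187 by edgeR), and this call was lost with DESeq2 and with no filter on low counts. In 6 of the 10 members both pair 2 libraries lay below both pair 1 libraries, against 30.2% of all genes.

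*Klf4*, *Esrrb* and *Tfcp2l1* were at 99.1%, 97.5% and 101% of their pair 1 level. Their log2 fold changes were −0.11, −0.14 and −0.08, with 95% intervals of −0.26 to 0.04, −0.29 to 0.01 and −0.26 to 0.10. Between these pairs, the intervals leave out a fall of the size seen in *Klf2*. They rest on the spread within pairs and do not measure that between replicate pairs. The D7 test without the block takes the gap between pairs 2 and 1 into its error. In *Klf2*, *Tbx3*, *Zfp42*, *Nr0b1* and *Nr5a2* the level was lowest in D7, middle in pair 2 and highest in pair 1 in both genotypes. The share of all genes with this order was not computed, so it is not read as a property of these genes.

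Of the 7 genes of the LIF pathway, 3 fell in D7 and 0 rose past the adjusted threshold, against 3.06% and 6.77% of all genes. *Il6st* (0.41 ± 0.13) and *Jak1* (0.55 ± 0.20) were higher at an unadjusted p under 0.05 (adjusted p = 0.0997 and 0.137 by edgeR). *Socs3*, the feedback inhibitor that Stat3 induces, had 20.2 FPKM in OE-D7 and 13 FPKM in Con-D7, against 51.9 to 135 FPKM in the other 4 libraries, and fell by 2.47 on the log2 scale (SE 0.46, adjusted p = 0.0316 by edgeR). *Lifr*, the LIF receptor, fell by 0.88 (SE 0.12, adjusted p = 0.0155) and *Stat3* fell by 0.60 (SE 0.11, adjusted p = 0.0327). In pair 2 against pair 1, 4 of the 7 rose and 0 fell, among them *Socs3*, with 0.96 ± 0.11 (adjusted p = 2.22e-06 by edgeR), and *Junb*, with 0.66 ± 0.09 (adjusted p = 1.96e-05). Among all genes, 26% rose and 25.4% fell in that comparison. *Klf4* and *Tfcp2l1*, named above as Stat3 targets, were low in the D7 pair and did not differ past the test between pairs 2 and 1. The pattern was not particular to them, since *Esrrb* shared it, with −1.23 in D7 and −0.14 in pair 2 against pair 1. Whether this pattern is linked to *Socs3* was not tested.

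The Fgf-Erk branch opposes the naive state and induces its own feedback genes. In D7, 2 of its 9 genes rose and 3 fell, beside 6.77% and 3.06% of all genes. *Fgfr2*, a receptor that Prdm14 is known to repress, had 9.79 FPKM in OE-D7 and 5.26 in Con-D7, against 0.68 to 1.12 FPKM in the other 4, with 2.96 ± 0.32 (adjusted p = 0.0087 by edgeR). *Spry4*, an Erk feedback inhibitor, fell by 2.73 (SE 0.32, adjusted p = 0.0109) and *Etv4*, an Erk-induced factor, fell by 1.83 (SE 0.13, adjusted p = 0.0041). *Dusp6*, another Erk feedback gene, did not pass, with 0.12 ± 0.18 (adjusted p = 0.70 by edgeR). *Egr1* did not pass either, with −0.51 ± 0.63 (adjusted p = 0.621 by edgeR). Erk activity itself was not tested. In pair 2 against pair 1, 2 rose and 3 fell, beside 26% and 25.4% of all genes. *Egr1*, an immediate early gene downstream of Erk, rose by 1.27 ± 0.16 (adjusted p = 6.91e-06). *Fgfr2* fell by 0.64 (SE 0.23, adjusted p = 0.0263) in that comparison, and a link to *Prdm14* was not tested.

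**Figure D5:**
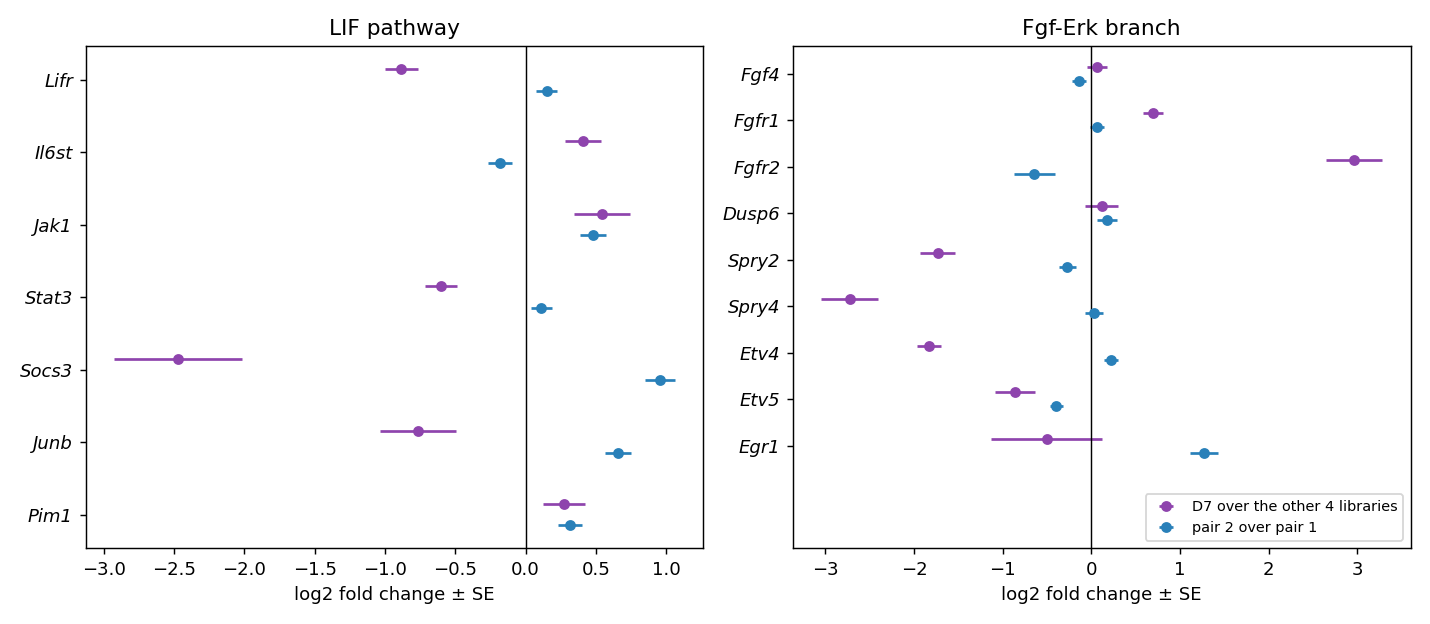
Log2 fold change ± SE of 7 LIF pathway genes and 9 genes of the Fgf-Erk branch, for the D7 libraries over the other 4 in purple and for pair 2 over pair 1 in blue. *Socs3* is at −2.47 in D7 and at 0.96 in pair 2, and *Spry4*, *Etv4* and *Spry2* are below 0 in D7.

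The Wnt branch and the repressors of naive factors gave 0 calls among 8 genes in D7 by edgeR, with 2 higher at an unadjusted p under 0.05. *Tcf7l1*, the repressor of *Esrrb*, had 0.14 ± 0.44 in D7 (adjusted p = 0.854 by edgeR) and −1.19 ± 0.12 in pair 2 against pair 1 (adjusted p = 7.04e-07). *Esrrb* did not differ between these pairs past the test, and a link between these genes was not tested. Of the formative and primed genes, 3 of the 11 tested rose in D7 and 1 fell, beside 6.77% and 3.06% of all genes. *Fgf5*, the classic marker of the formative epiblast, had 0.83 FPKM in OE-D7 and 3.10 in Con-D7, against at most 0.11 FPKM elsewhere. *Dnmt3a* rose by 0.69 ± 0.11 (adjusted p = 0.0242), whereas *Dnmt3l* fell by 1.20 (SE 0.14, adjusted p = 0.0112).

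Among the 12 other genes associated with the naive state, 4 fell in D7 and 0 rose, beside 3.06% and 6.77% of all genes. *Gbx2*, a Stat3 target that sustains ESC self-renewal, had 0.92 FPKM in OE-D7 and 0.93 in Con-D7, against 8.99 to 15.5 FPKM in the other 4, and fell by 3.79 (SE 0.35, adjusted p = 0.00605 by edgeR). *Tet2*, which oxidises methylcytosine, fell by 1.30 (SE 0.20, adjusted p = 0.0205). *Tcl1*, a coactivator of Akt, fell by 0.71 (SE 0.15, adjusted p = 0.0423), and *Stat3*, also in this list, is given with the LIF pathway. In pair 2 against pair 1, 7 of the 12 fell and 2 rose, beside 25.4% and 26% of all genes.

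Paralogs of the members were called in both directions. Of the 13 paralogs of *Klf2*, *Klf4* and *Klf5* that were tested in D7, 2 rose and 1 fell, beside 6.77% and 3.06% of all genes. *Klf6* had 45.6 FPKM in OE-D7 and 31.9 in Con-D7, against 9.63 to 13.8 FPKM in the other 4, with 1.74 ± 0.18 (adjusted p = 0.00807 by edgeR). *Klf11* rose by 0.76 ± 0.14 (adjusted p = 0.0294) and *Klf12* fell by 1.07 (SE 0.16, adjusted p = 0.0179). *Grhl2*, an epithelial factor of the same family as *Tfcp2l1*, had 10.3 FPKM in OE-D7 and 10.4 in Con-D7, against 2.54 to 3.95 FPKM, with 1.67 ± 0.17 (adjusted p = 0.00793). No tested paralog of *Esrrb*, *Tbx3*, *Zfp42*, *Prdm14* or *Nr5a2* passed in D7 by edgeR, 2 of them having an unadjusted p under 0.05, and *Nr0b2*, the paralog of *Nr0b1*, was at most 0.13 FPKM and was not tested.

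The genes whose profile over the 6 libraries was closest to the median profile of the members were sought among 9023 other genes with a mean of at least 5 FPKM. By Euclidean distance of centred log2(FPKM + 0.5) values they were *2900011O08Rik* (0.17), *Gpaa1* (0.18), *Ada* (0.19), *Gtf2h4* (0.19) and *Rex1bd* (0.20). *Ada*, adenosine deaminase, had 7.93 FPKM in OE-D7 and 8.06 in Con-D7, against 12.4 to 16.8 FPKM in the other 4. With 6 libraries and a low D7 pair, many genes have a similar profile, and the order among them is a description.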

How the data were processed

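The 6 mRNA-seq libraries of mouse ESCs were sequenced on BGISEQ-500. Reads were mapped by the authors to mm10 with Bowtie2 and assigned to genes with RSEM. They deposited its estimated counts without normalization. FPKM values, scaled by the authors for length and depth, were deposited beside them. HISAT and GRCm38.p6 stand in the submitters' processing notes instead, and tool versions are not given in the sources used here. For the D7 pair, the heading calls the counts averages. Columns assigned to no sample numbered 0.

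Rounded counts were fitted over all genes whose FPKM averaged 0.5 or more, 13494 genes for 4 libraries and 13809 for 6, with edgeR 4.0.16 (TMM, quasi-likelihood F test, R 4.3.3) and Benjamini-Hochberg adjustment at 0.05. SE was the log2 fold change over the square root of F. Fits were tested on simulated data. DESeq2 1.42.0, limma 3.58.1 on log2(FPKM + 0.5), other filters, left-out libraries and a replicate block were alternatives.

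Deviations of OE and Con libraries of the same number from their genotype means correlated at 0.88, 0.76 and 0.89 over 12565 genes, and those of different numbers at −0.03 or below, so the numbers were taken to pair the libraries. Pairing comes from the data, since no source states it. All members were named, with at most the 4 largest called changes of each companion list. Members, lists and tests were chosen with earlier results of these data known.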

Additional observations from a re-analysis of the deposited data

How the results depend on the processing

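The OE against Con count was 0 members in each direction under every alternative run over 4 and over 6 libraries, the replicate block included. This count says little by itself, because few genes passed at all. Without the block, *Dppa3* itself did not pass by edgeR over 4 libraries (adjusted p = 0.43). DESeq2 called 2 genes higher and 0 lower over 4 libraries, and 6 higher and 1 lower over 6. With the block over 4 libraries, edgeR called 103 genes higher and 17 lower. The sign of most of these small changes in the members changed when 1 library was left out. Such a fit had no block and left 1 library without its partner, so the gap between pairs entered the change. These values therefore do not show how stable the OE effect within pairs was. Leaving out 1 library at a time moved the OE over Con log2 fold change between −0.55 and 0.58 for *Klf2*, −0.10 and 0.033 for *Klf4*, −0.076 and 0.21 for *Klf5*, −0.26 and 0.019 for *Tfcp2l1*, −0.43 and 0.0061 for *Tbx3*, −0.14 and 0.37 for *Zfp42*, −0.49 and 1.06 for *Prdm14*, −0.68 and 0.76 for *Nr0b1* and −0.43 and 0.60 for *Nr5a2*. With limma on log2(FPKM + 0.5) it was 0.016 for *Klf4* and 0.0088 for *Nr0b1*, with or without the replicate block, and with a pseudocount of 1 it was 0.0159 and 0.0071; these 2 genes were below 0 in edgeR. Over all genes the median was 0.0425 with limma on log2(FPKM + 0.5) and −0.0096 with edgeR, both without the block. The cause of the change of sign was not tested.

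The number of members called lower in D7, 4, was 7 with DESeq2 (7.21% of all genes called lower), 9 with the replicate block, 0 with counts summed per pair, and 0 to 8 when 1 library was left out. Against pair 1 alone it was 10 (26.4% of all genes) and against pair 2 alone 7 (13.1%), where *Prdm14* turned to 0.28; these comparisons were chosen after seeing the data, as were DESeq2 and limma with the block. In pair 2 against pair 1, the 1 member called higher became 0 with DESeq2 and 0 with no filter on low counts. *Tfcp2l1* there was 0.0149 and 0.0147 with limma at both pseudocounts and −0.28 to 0.12 when 1 library was left out, where no residual degrees of freedom remained and no test was made. The block changed the call of no member in OE against Con.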
